A study of Mus musculus with 7 samples.

Results

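Of 17209 genes listed for muscularis macrophages of the mouse small intestine, a chosen set of 10 is described here, made of AP-1 subunits and some of the other immediate early genes: Fos, Fosb, Fosl2, Jun, Junb, Jund, Atf3, Egr1, Klf4 and Ier3. They were chosen by gene name, each of the 10 names matched a single row, and all 10 passed the expression filter, as did every listed gene. The cells, positive for CX3CR1-GFP, were sorted from the peeled muscle layer 24 h after sham surgery (4 libraries, Sham 1 to Sham 4) or after pMCAO surgery, which the series title calls stroke (3 libraries, pMCAO 1 to pMCAO 3). The genotype label of every library is C57BL6/J and does not name the reporter allele. The labels give neither age nor sex, call the sham libraries biological replicates without giving the animals per library, and name a pool in the description of pMCAO 3, so p-values measure the spread between these libraries, part of which may be technical. The gate selects on the reporter and not on a macrophage lineage, and the design text describes 1 dissection and sort for all libraries.

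AP-1 is a dimer of basic leucine zipper proteins, made of a Jun protein paired with a Fos, ATF or second Jun protein, that binds short palindromic sites in promoters and enhancers. The genes of Fos, Jun, Egr1 and their relatives are immediate early genes, which means that their transcription starts within minutes of a signal with no need for new protein, driven by serum response factor, ternary complex factors and CREB that MAP kinases and other kinases have switched on. In macrophages they respond to microbial products, adhesion and damage, and Junb, Atf3 and Klf4 also set the balance between inflammatory and reparative programs. Dissociation and sorting of tissue are known to induce the same genes, and as all groups here were sorted, the level that belongs to undisturbed cells was not measured.

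The control sequences of these genes are part of that description. The bases before the start site are shown for Fos and Jun, the most abundant subunits of their families, and for Klf4. Values of Klf4 did not overlap between groups, nor did those of Fosl2 or of 12.6% of all genes in either direction. Each line is the 250 bases before the RefSeq start in GRCm38.p6, written 5′ to 3′ on the gene's own strand. They lie at chr12:85473640-85473889 (plus strand) for Fos, chr4:95052223-95052472 (minus strand) for Jun and chr4:55532476-55532725 (minus strand) for Klf4, outside annotated exons. Capitals mark TGACG, the core of the cAMP response element to which CREB and ATF proteins bind, or its reverse complement, and TGACATCA, the octamer of the Jun promoter known to bind Jun with ATF2.
Fos: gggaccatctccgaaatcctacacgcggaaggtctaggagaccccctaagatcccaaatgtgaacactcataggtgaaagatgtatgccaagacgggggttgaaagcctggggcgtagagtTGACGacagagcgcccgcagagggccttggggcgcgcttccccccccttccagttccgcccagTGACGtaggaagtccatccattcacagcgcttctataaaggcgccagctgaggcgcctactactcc
Jun: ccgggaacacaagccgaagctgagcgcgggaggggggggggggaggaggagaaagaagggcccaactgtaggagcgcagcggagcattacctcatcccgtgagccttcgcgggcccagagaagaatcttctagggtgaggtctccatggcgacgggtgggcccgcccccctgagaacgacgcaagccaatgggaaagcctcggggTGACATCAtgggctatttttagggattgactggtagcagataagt
Klf4: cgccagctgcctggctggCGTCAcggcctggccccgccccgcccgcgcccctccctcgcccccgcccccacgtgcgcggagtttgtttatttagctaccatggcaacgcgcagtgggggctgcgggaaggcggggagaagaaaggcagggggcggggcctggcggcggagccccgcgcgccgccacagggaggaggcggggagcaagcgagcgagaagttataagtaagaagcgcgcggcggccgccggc

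The core TGACG was found in 5 of the 9 members whose windows were searched (Fos, Fosb, Junb, Atf3 and Klf4) on either strand, against 17.8% of all 32851 windows of that length. In Fos it began at -129 and again at -66 from the start, in Fosb at -60 and in Junb at -106. The octamer TGACATCA, searched on both strands as well, was found in Jun from -45 to -38 and in 2.93% of all windows. The whole element TGACGTCA (1.55% of windows), the AP-1 site TGAGTCA (4.46%) and the CArG box of serum response factor (1.47%) were in none of the 9 windows, and a match or its lack describes these letters only. The core is contained in the whole element, so those searches overlap. The RefSeq window of Jund ends well before the annotated gene, that of Fosl2 lies within annotated exons and that of Atf3 precedes an inner start, so these are not the bases before the outermost start, and those of Jund and Fosl2 held no core. The window of Egr1 was not used here, and bases farther upstream than these windows were not searched for any motif.

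Before the results, some measures of the libraries differed between groups. Total counts ran from 12685941 (pMCAO 1) to 34432716 (Sham 4). Macrophage genes were present in every library, with Csf1r at 2316 ± 576 and 1813 ± 172 CPM, Cx3cr1 at 256 ± 37.5 and 175 ± 43.3 CPM and C1qa at 546 ± 104 and 279 ± 76.9 CPM as means ± SD of 4 sham and 3 pMCAO libraries. Adgre1 was at 1326 ± 270 and 1033 ± 243 CPM, and Ptprc was nearly level at 2017 ± 368 and 1995 ± 85.2 CPM. Of 12 macrophage markers, 11 had lower means after pMCAO, Itgam by little (792 and 762 CPM). The mean of 1, Mertk, was higher (354 and 516 CPM). The summed level of these 12 markers was 19866 to 26273 CPM (counts scaled to a common library size with TMM factors, the scale of every CPM value here) in sham and 14042 to 19796 CPM after pMCAO. Markers of fibroblasts, of which 7 of 8 were listed, summed to 47.4 to 150 CPM in sham and 442, 102 and 513 CPM in pMCAO 1 to 3. The 8 blood endothelial markers summed to 121 to 322 CPM and 365 to 502 CPM, and the 2 mitochondrial ribosomal RNAs to 22884 to 57461 CPM and 84368 to 136080 CPM. Of 6 markers of large peritoneal macrophages 4 were listed, Gata6 not among them, at 12.9 to 32.3 CPM in sham and 147, 374 and 27.0 CPM in pMCAO 1 to 3. Of these pMCAO sums, Saa3 alone gave 110, 308 and 3.87 CPM. Y-linked genes summed to 227 to 569 CPM in 4 libraries and to 0.687 to 10.6 CPM in Sham 2, Sham 4 and pMCAO 1, a split that crosses the groups. None of these markers was at 3 counts or fewer in all libraries, and their part in the results below was not tested except where a value is given. In bulk RNA, fewer cells of a type and less RNA per cell cannot be told apart.

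Several members were among the most abundant transcripts of these cells already after sham surgery. Levels were compared between genes per kilobase of annotated exon. On that scale Fos stood at 815, Jun at 460 and Egr1 at 383 CPM per kilobase as sham means, and over all libraries they ranked 37, 65 and 76 among 17127 genes with a length. Klf4 (115), Ier3 (94.4), Atf3 (75.5), Junb (54.5) and Fosb (49.2) followed, then Jund (25.0) and Fosl2 (5.59). In sham libraries the ranges of Fos (610 to 955) and Jun (364 to 579) did not overlap, while those of Jun and Egr1 (186 to 509) did. The ranges of Klf4, Ier3 and Atf3 overlapped in turn, as did those of Junb and Fosb. The wide range of Ier3 (41.2 to 135) also held that of Junb (45.4 to 63.2). The ranges of Ier3 and Atf3 (from 63.3) both overlapped that of Fosb (38.3 to 64.9). Jund (22.4 to 32.4) and Fosl2 (4.63 to 6.21) each lay apart from their neighbours. The exon length joins all annotated isoforms, so a gene with long alternative exons such as Fosl2 (9680 bases) is set low. Together the 10 members took 0.534% to 0.815% of a library's counts. The smallest count of any member in a library was 268, so counting error was small against the spread between libraries.

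After pMCAO, 8 of the 10 members had higher means and 2, Jund and Ier3, had lower means, with a median log2 change of 0.21 against -0.02 over all genes. This median depended on the processing, at 0.50 with 10 of 10 members higher under offsets for exon length and GC content, 0.48 with a fibroblast and endothelial marker score as a covariate, 0.09 with 6 of 10 higher without scaling factors, and -0.05 with 4 of 10 higher under sample quality weights. No member changed by the edgeR quasi-likelihood test with Benjamini-Hochberg adjustment over all genes. That test called 0.0988% of all genes. At an unadjusted p under 0.05 there were 3 members, Fosl2, Atf3 and Klf4, each higher after pMCAO, where 6.97% of all genes were higher at that level. Values of Fosl2 and Klf4 did not overlap between groups, higher after pMCAO in 3 of 3 libraries, as in 5.99% of all genes, and no member was lower without overlap, as were 6.58% of all genes. With DESeq2, which called 2.97% of all genes, and with limma-voom, which called 0.203%, 0 members passed as well, and each gave the 3 members an unadjusted p under 0.05. Fosl2 and Atf3 passed under sample quality weights in limma-voom, which called 4.75% of all genes, and Klf4 passed when offsets removed the dependence of each library on exon length and GC content, which called 0.128%. The plot of values by library shows these members together.

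**Figure D1:**
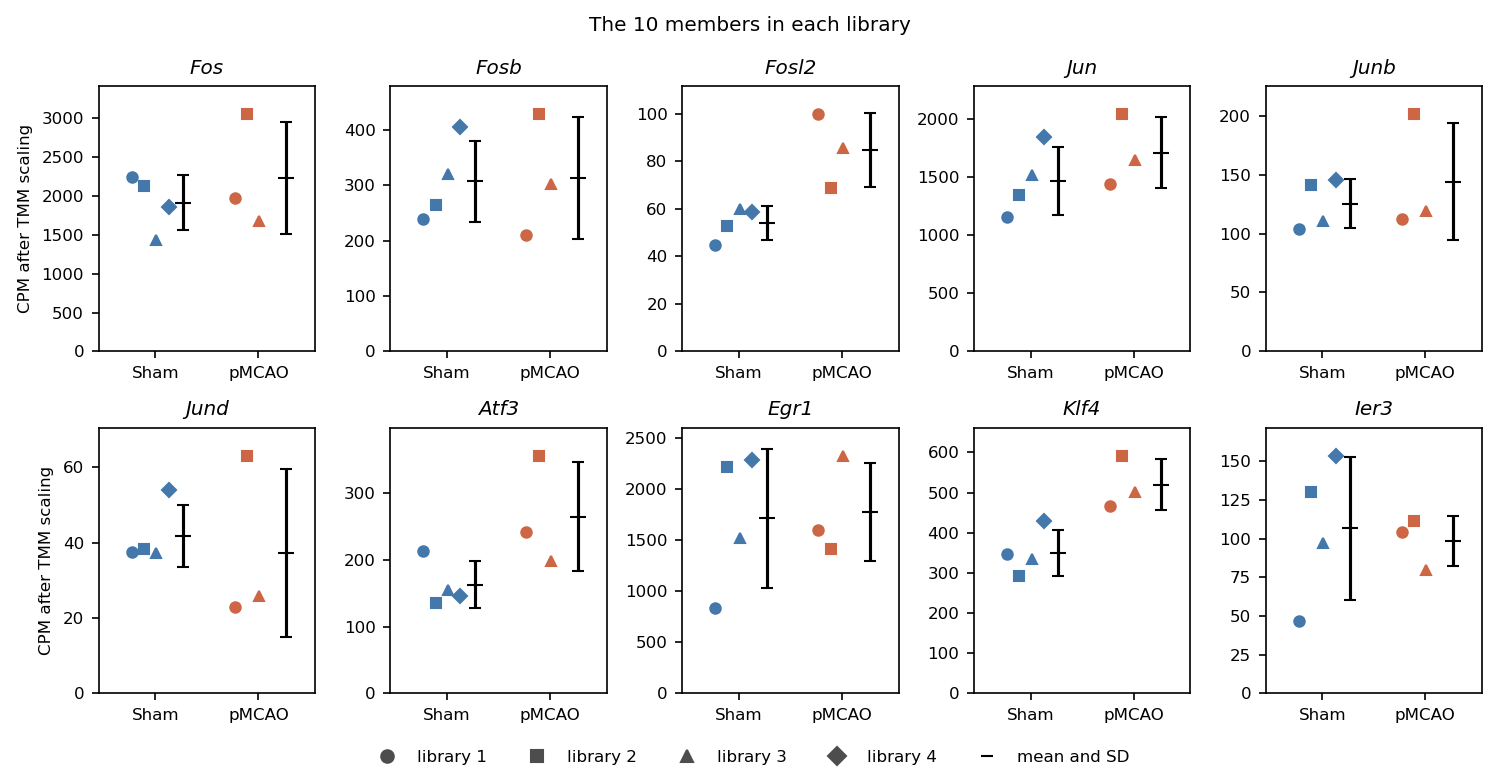
Each panel plots the CPM after TMM scaling of a gene (linear vertical axis from 0) in the 4 Sham and 3 pMCAO libraries, with marker shape for the library number and a bar for mean and SD. The pMCAO points of Fosl2 and Klf4 lie above every Sham point, and pMCAO 2 is the highest point in 7 of the 10 panels.

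Among the Fos proteins, which cannot pair with each other and need a Jun or ATF partner, Fosl2 (Fra-2, a subunit of slower kinetics than c-Fos) was the member whose groups stood apart. Its gene (ENSMUSG00000029135) lies on chromosome 5 from 32135801 to 32157842 of GRCm38. Fosl2 was at 44.8, 52.7, 60.1 and 58.8 CPM in Sham 1 to 4 and at 99.8, 68.7 and 85.6 CPM in pMCAO 1 to 3. Every pMCAO library exceeded every sham library, with the smallest gap between Sham 3 and pMCAO 2. The means were 54.1 ± 7.0 (SD, n = 4) and 84.7 ± 15.6 CPM (SD, n = 3), a 1.56-fold difference in the fit. The log2 change was 0.65 (SE 0.20, adjusted p = 0.191), and it was 0.46 to 0.78 over 21 other settings, with adjusted p from 0.0271 (limma-voom with sample quality weights) to 0.895 (the fibroblast and endothelial marker score as a covariate). In pMCAO 1 and pMCAO 3, where Fosl2 was highest, the fibroblast markers were highest too, and in pMCAO 2 both were lower. This order did not extend to the sham libraries. Sham 2 had more fibroblast signal (150 CPM) than pMCAO 2 (102 CPM) but less Fosl2. Sham 3, the sham library with the most Fosl2, had 54.1 CPM of fibroblast markers. The part of fibroblast RNA in the Fosl2 values was not tested.

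Fos (ENSMUSG00000021250, chromosome 12, 85473890 to 85477273), the prototype of the family, did not separate the groups. It was at 2246, 2127, 1435 and 1862 CPM in Sham 1 to 4 and at 1982, 3052 and 1676 CPM in pMCAO 1 to 3. Only pMCAO 2 was above the sham range, and the other pMCAO libraries lay within it. The log2 change was 0.22 (SE 0.23, adjusted p = 0.710), and without pMCAO 2 it was -0.07 (adjusted p = 0.901). Fosb (ENSMUSG00000003545, chromosome 7, 19302696 to 19310051), whose short splice form is a stable subunit, was at 239, 264, 321 and 405 CPM in sham and at 210, 428 and 302 CPM after pMCAO. The pMCAO values spanned the sham range, with the lowest and the highest of all 7 libraries among them. The log2 change of Fosb was 0.03 (SE 0.24, adjusted p = 0.974), and it was -0.44 with sample quality weights (adjusted p = 0.196, over all settings 0.196 to 0.998). Fosl1, the remaining family member, is not in the table, which lists only genes above 0.5 CPM in at least 4 libraries.

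Of the Jun proteins, Jun, the strongest activator, gave 1160, 1344, 1521 and 1848 CPM in Sham 1 to 4 and 1439, 2039 and 1649 CPM in pMCAO 1 to 3. The groups overlapped, although all 3 pMCAO values were above the sham median. The log2 change of Jun (ENSMUSG00000052684, chromosome 4, 95049034 to 95052222) was 0.22 (SE 0.20, adjusted p = 0.664). It was 0.08 without pMCAO 2. Junb (ENSMUSG00000052837, chromosome 8, 84974484 to 84978718), which can restrain Jun and is needed for macrophage activation, gave 104, 141, 111 and 145 CPM in sham and 112, 201 and 119 CPM after pMCAO. Here too pMCAO 2 alone was above the sham range, and the log2 change of 0.20 (SE 0.22, adjusted p = 0.731) turned to -0.12 without it.

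Jund (ENSMUSG00000071076, chromosome 8, 70698949 to 70700616), the Jun protein that is present in most resting cells, showed the widest split among the pMCAO libraries. It was at 37.5, 38.2, 37.4 and 54.1 CPM in Sham 1 to 4 and at 22.9, 62.9 and 25.8 CPM in pMCAO 1 to 3. The values of pMCAO 1 and 3 were below all sham values and that of pMCAO 2 above them. The log2 change was -0.17 (SE 0.32, adjusted p = 0.860). Without pMCAO 2 it was -0.77 (adjusted p = 0.150) and the groups no longer overlapped. Without that library 27.9% of all genes did not overlap in either direction. Under the length and GC offsets the log2 change of Jund was 0.30 (adjusted p = 0.733). Jund has the highest GC content of the members, 67.1%, against a median of 48.8% over genes of at least 5 CPM. Annotated antisense genes share 877 exon bases with Jund (Gm11175) and 232 with Jun (Junos), and Junb shares 173 with Prdx2 on the opposite strand. These 3 counts may include reads of the partner, since no source used here says whether counting used the strand.

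Atf3, a stress-induced partner of Jun that represses many inflammatory genes, had the largest log2 change of the members in the edgeR fit. Atf3 (ENSMUSG00000026628, chromosome 1, 191170296 to 191218039) was at 214, 136, 155 and 146 CPM in Sham 1 to 4 and at 242, 355 and 198 CPM in pMCAO 1 to 3. The groups overlapped through Sham 1 and pMCAO 3 alone. The means were 163 ± 34.9 (SD, n = 4) and 265 ± 81.0 CPM (SD, n = 3), and the log2 change was 0.70 (SE 0.22, adjusted p = 0.193). It was 0.44 without pMCAO 2, the highest library, and 1.24 with the fibroblast and endothelial marker score as a covariate, with adjusted p from 0.0322 (sample quality weights) to 0.814 over 21 settings.

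Klf4, a zinc finger factor that is induced early, takes part in monocyte differentiation and favours alternative activation, separated the groups. Klf4 (ENSMUSG00000003032, chromosome 4, 55527143 to 55532466) was at 346, 292, 334 and 429 CPM in Sham 1 to 4 and at 467, 590 and 502 CPM in pMCAO 1 to 3. Each pMCAO value was above each sham value, with Sham 4 the nearest. The means were 350 ± 57.6 (SD, n = 4) and 520 ± 63.3 CPM (SD, n = 3), a log2 change of 0.57 (SE 0.18, adjusted p = 0.192). It was 0.95 under the length and GC offsets (adjusted p = 0.0466), and also 0.95 with the marker score as a covariate, where the adjusted p of 0.814 was the highest over 21 settings. Without scaling factors the groups of Klf4 overlapped.

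Egr1, the zinc finger factor of the growth response and a target of serum response factor, varied widely within the sham group. Egr1 (ENSMUSG00000038418, chromosome 18, 34859823 to 34864984) was at 835, 2220, 1523 and 2283 CPM in Sham 1 to 4 and at 1606, 1414 and 2322 CPM in pMCAO 1 to 3. The sham values spanned 2.73-fold, and the pMCAO values lay inside or just above that range. The log2 change was 0.05 (SE 0.30, adjusted p = 0.958), and it was -0.17 without Sham 1. Ier3, a small early response protein that limits NF-kB signals and cell death, had the same low library. Ier3 (ENSMUSG00000003541, chromosome 17, 35821684 to 35822923) was at 46.6, 130, 97.1 and 153 CPM in sham and at 104, 111 and 80.0 CPM after pMCAO. All 3 pMCAO values lay inside the sham range, which spanned 3.27-fold. The log2 change of Ier3 was -0.12 (SE 0.31, adjusted p = 0.896), and it was -0.37 without Sham 1 (adjusted p = 0.413).

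**Figure D2:**
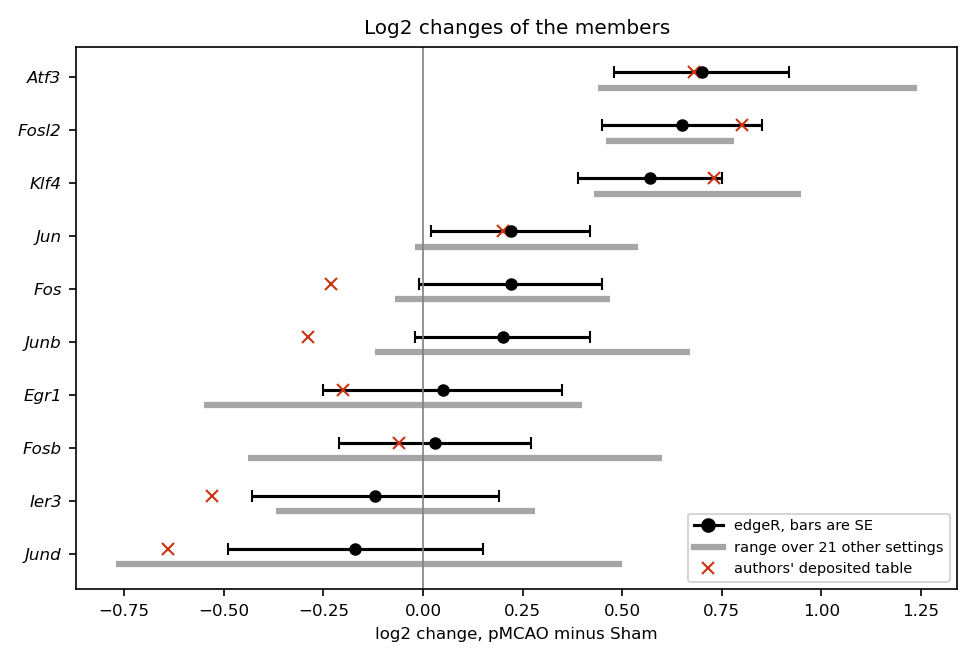
Black points give the log2 change of each member (horizontal axis, pMCAO minus Sham) from edgeR with its SE, grey bars the range over 21 other settings, and crosses the value in the authors' deposited table. Atf3, Fosl2 and Klf4 lie above 0 in all of them, and the grey bars of the other 7 members cross 0.

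The authors' deposited table gave these members other values in part. Its log2 changes were 0.80 for Fosl2, 0.73 for Klf4 and 0.68 for Atf3, with adjusted p of 0.194, 0.188 and 0.208 in the authors' deposited table. For Fos (-0.23), Fosb (-0.06), Junb (-0.29) and Egr1 (-0.20) the authors' deposited table gave the opposite sign to the edgeR fit, and for Jund (-0.64) and Ier3 (-0.53) values further below 0. No member passed an adjusted p of 0.05 in the authors' deposited table, where 0.0814% of all genes did. Over all genes, a limma-voom fit with group as the only term differed from the log2 changes of the authors' deposited table by a median of 0.34, with r = 0.63 across genes. The cause of this gap was not tested.

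Between libraries, the members did not move as a single block. The library pMCAO 2 was the highest of 7 for 7 members (Fos, Fosb, Jun, Junb, Jund, Atf3 and Klf4), with a median deviation from the sham mean of 0.56 on the log2 scale. In pMCAO 1 and pMCAO 3 the medians were 0.04 and 0.10, and in sham libraries they ran from -0.26 (Sham 1) to 0.33 (Sham 4). Sham 1 was the lowest library for 5 members. Among the sham libraries Sham 1 had the highest sums of monocyte markers (1448 CPM, against 579 to 699 CPM), of B and plasma cell markers (1576 against 451 to 821 CPM) and of mitochondrial ribosomal RNA (57461 against 22884 to 30792 CPM). The same pMCAO 2 library had the highest sum of the large peritoneal macrophage markers (374 CPM, of which Saa3 gave 308). Icam2 of that list was lowest there (3.34 CPM). It also had the highest level of Fabp4 (557 CPM, against 61.7 to 247 in the others), the sole listed adipocyte marker, which endothelium and macrophages also express. The part of these differences in the results was not tested. Without pMCAO 2 the median log2 change of the members was 0.01, and 5 of 10 had higher values after pMCAO.

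**Figure D3:**
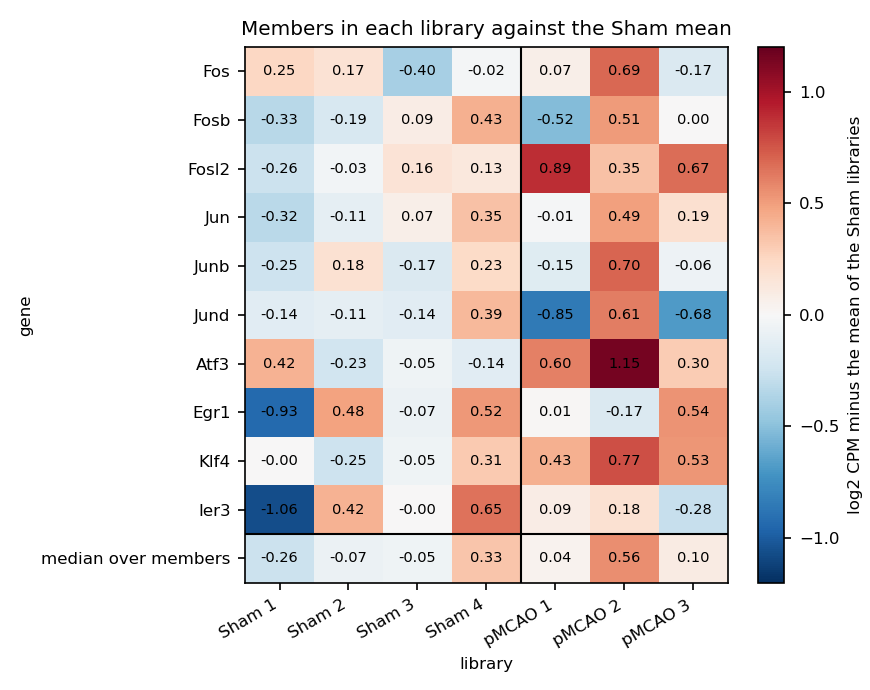
Colours and numbers give the log2 CPM of each member (rows) in each library (columns) minus its mean over the Sham libraries, and the last row is the median over the members. The column of pMCAO 2 is positive for 9 members, with Egr1 as the exception, and the rows of Fosl2, Atf3 and Klf4 are positive in all 3 pMCAO columns.

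Over the 7 libraries, 36 of 45 pairs of members had a positive Pearson r of log2 CPM, with a median of 0.39 and a range from -0.54 (Fosl2 with Jund) to 0.86 (Fosb with Jun). For Fosb with Jun, the two-sided exact permutation p of the Pearson r was 0.0153 and its value adjusted over the 45 pairs was 0.342. Spearman's rho of this pair was 0.86 (exact permutation p = 0.0238). That r was 0.94 without the libraries farthest from the median of Fosb, and 0.96 for deviations from the group means. By rank the smallest adjusted p was 0.548 by exact permutation, so no pair passed by either measure. Egr1 and Ier3 had r = 0.76 and rho = 0.36 (exact permutation p = 0.0532 and p = 0.444). Both were lowest in Sham 1, and r was 0.88 without the libraries farthest from the median of Egr1, Sham 1 among them, and 0.77 for deviations from the group means. Libraries share depth and handling across genes, so these values describe the 7 libraries.

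The share of every listed Fos and Jun family member overlapped between groups. With 4 against 3 libraries a two-sided exact permutation test cannot give a p below 0.057, so it could not pass 0.05, and the p-values of the shares do not show that the groups are alike. Per exon length, Fos took 93.5% ± 2.20 (SD, n = 4) of the listed Fos family in sham and 94.0% ± 1.29 (SD, n = 3) after pMCAO, and Jun took 85.1% ± 1.67 and 86.7% ± 2.66 of the Jun family. By counts, Fosl2 took 1.77%, 2.16%, 3.31% and 2.53% of its family in Sham 1 to 4 and 4.36%, 1.93% and 4.15% in pMCAO 1 to 3. Its share was above all sham values in pMCAO 1 and 3 and inside the sham range in pMCAO 2 (two-sided exact permutation p = 0.229). The mean share was 1.04 percentage points higher after pMCAO, 1.81 without pMCAO 2, 0.6 without pMCAO 1 and 0.703 without pMCAO 3. Per exon length the difference was 0.275 percentage points. Junb took 7.75% ± 1.16 of the Jun family in sham and 7.49% ± 1.11 after pMCAO (exact permutation p = 0.8). Jund took 2.24% to 2.88% in sham and 1.45%, 2.73% and 1.44% in pMCAO 1 to 3 (exact permutation p = 0.2).

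**Figure D4:**
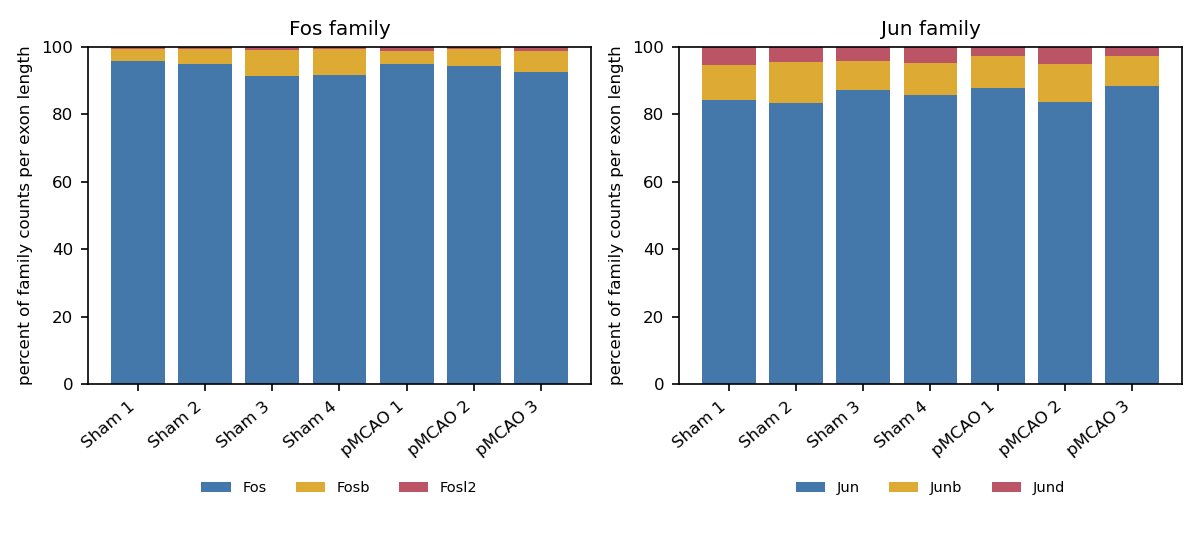
Stacked bars give the percent of counts per exon length that each listed member takes of the Fos family (left) and of the Jun family (right) in each library. Fos and Jun take most of their family in every library, and the Jund segment is narrowest in pMCAO 1 and pMCAO 3.

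The genes around these factors were read from fixed lists in the same fit, and a few genes stand in more than 1 list. Of the other basic leucine zipper genes that can pair with or compete with AP-1 (ATF, BATF, MAF, CREB and C/EBP proteins), 26 of 26 were listed, 12 higher and 14 lower in the mean, with a median of -0.01 on the log2 scale, and 0 passed. The lowest p belonged to Batf3, a partner of Jun in dendritic cells, at 25.9 ± 5.10 and 12.9 ± 5.22 CPM (log2 change -1.01, adjusted p = 0.192), Atf6b, a factor of the unfolded protein response (-0.80, adjusted p = 0.209), and Batf (-0.86, adjusted p = 0.322). Of the 28 genes of the MAP kinase cascade and serum response factor, 14 were higher and 14 lower, 0 passed, and the median was 0.02. Mapkapk2, the p38 substrate that stabilises cytokine messages, was at 138 ± 23.7 and 82.5 ± 9.33 CPM (log2 change -0.75, adjusted p = 0.128). Mapkapk2 and Rps6ka1 (-0.73), a kinase downstream of ERK, were lower without overlap, as were 6.58% of all genes. Map3k8 (0.52), the kinase Tpl2 that links Toll-like receptors to ERK, was higher without overlap, as were 5.99% of all genes. Mapkapk2 and Rps6ka1 passed with DESeq2 (adjusted p of 0.0217 and 0.0342), which called 2.97% of all genes. Their adjusted p ran up to 0.814 and 0.845 over all settings.

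Of 45 listed immediate early genes other than the members, 29 were higher and 16 lower, 0 passed and the median log2 change was 0.23, close to the members' own. Ptgs2, the inducible cyclooxygenase, was at 11.2 ± 2.20 and 33.0 ± 11 CPM (log2 change 1.56, SE 0.30, adjusted p = 0.0577). Klf10, a TGF-beta induced repressor, was at 57.1 ± 15.2 and 119 ± 20.2 CPM (1.06, SE 0.22, adjusted p = 0.0626). Sgk1, a kinase induced by serum and glucocorticoids, was at 84.4 ± 5.04 and 165 ± 51.6 CPM (0.97, SE 0.21, adjusted p = 0.0760). These 3 were named for having the smallest p of the list. All 3 were higher without overlap, as were 4 of the 45 genes and 5.99% of all genes. They passed with DESeq2 (adjusted p of 0.000213, 0.00138 and 0.00291), which called 2.97% of all genes. The highest adjusted p over other settings were 0.868, 0.838 and 0.814. The summed level of the list was 7056 to 7874 CPM in sham and 7716, 10942 and 8410 CPM in pMCAO 1 to 3, with pMCAO 2 above the others as it was for the members.

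Of 20 feedback phosphatases and inhibitors of these pathways, 9 were higher and 11 lower, 0 passed and the median was -0.07. Dusp7, a phosphatase of ERK, was at 58.2 ± 8.89 and 35.6 ± 4.28 CPM (log2 change -0.71, adjusted p = 0.178), Spred1, an inhibitor of Raf activation, had a log2 change of 0.44 and Spry1 of 0.67 (adjusted p of 0.352 and 0.462). Of 27 listed genes described as targets of AP-1 or EGR factors, 15 were higher and 12 lower, with a median of 0.07, and 1 passed. This was Mmp13, a collagenase with an AP-1 site in its promoter, which fell from 139 ± 17.4 to 49.8 ± 5.81 CPM (log2 change -1.49, SE 0.19, adjusted p = 0.00631). The call was lost without pMCAO 1 (-1.40, adjusted p = 0.0988) and with the marker score as a covariate (-1.18, adjusted p = 0.802). Each of these fits called 0 genes over the whole table, so neither loss is particular to Mmp13. The same list holds Ptgs2, given above among the immediate early genes. In it Cxcl2, which draws neutrophils, was at 250 ± 23.8 and 447 ± 70.4 CPM (0.84, adjusted p = 0.0614). Genes of the target list had log2 changes on both sides of 0.

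Heat shock genes encode chaperones, some of which are also induced by tissue dissociation. Of 15 genes, 7 were higher and 8 lower, 0 passed and the median log2 change was -0.21. Dnaja1, a co-chaperone of Hsp70, was at 182 ± 25.7 and 260 ± 13.5 CPM (0.51, adjusted p = 0.208), Dnajb4 had a log2 change of 0.51 and Hsph1, a nucleotide exchange factor, of -0.60 (adjusted p of 0.272 and 0.285). The list mixes stress-inducible chaperones with constitutive ones and those of the endoplasmic reticulum and mitochondria, and the following genes were chosen after their values were seen. The inducible Hspa1a was at 57.8 ± 17.1 and 83.9 ± 10.1 CPM (log2 change 0.54, adjusted p = 0.331), Hspa1b at 37.5 ± 24.0 and 58.6 ± 13.8 CPM (0.65, adjusted p = 0.497) and Hsp90aa1 at 324 ± 40.8 and 435 ± 80.1 CPM (0.43, adjusted p = 0.322). Hspa5, the chaperone of the endoplasmic reticulum, was at 1392 ± 257 and 1063 ± 118 CPM (-0.39, adjusted p = 0.392) and the constitutive Hspa8 at 721 ± 39.3 and 623 ± 122 CPM (-0.21, adjusted p = 0.632). Dnajb1 went the other way from Hspa1a, as did Hsph1 above. It was at 74.0 ± 8.26 and 51.0 ± 12.7 CPM, lower without overlap (-0.54, adjusted p = 0.288), as were 6.58% of all genes. Bag3 differed little (0.03, adjusted p = 0.975). Hspa1a was highest in pMCAO 2 (94.1 CPM), as were 7 of the members. Hspa1b (72.7 CPM) and Hsp90aa1 (508 CPM) were highest in pMCAO 3 instead. The summed level of the heat shock list was lowest in pMCAO 2 (3392 CPM), where Hspa5 gave 940, Hspa8 733 and Hsp90ab1 588 CPM. Bag3 was highest in that library (34.5 CPM). What set the level of these genes in pMCAO 2 was not tested. The difference between the medians of the lists was not tested.

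**Figure D5:**
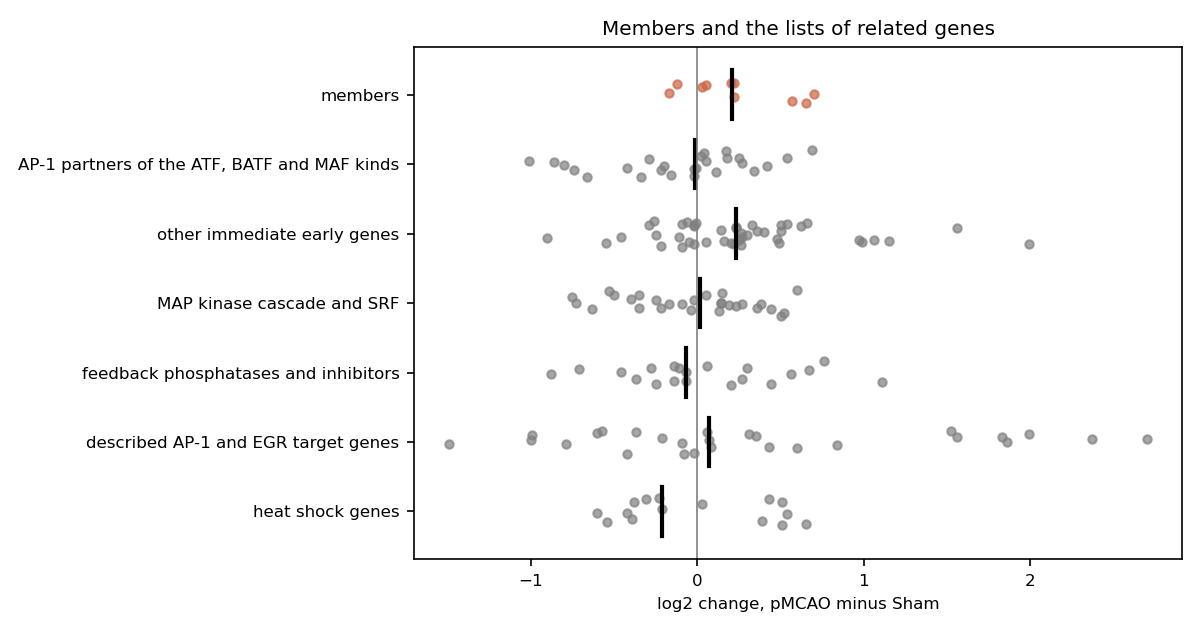
Points give the log2 change (horizontal axis, pMCAO minus Sham) of each gene of the 10 members and of 6 lists of related genes (rows), and black bars the medians. The medians run from -0.21 for heat shock genes to 0.23 for the other immediate early genes, and the target genes spread on both sides of 0.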

How the data were processed

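The deposited table holds read counts per gene for 7 libraries, which the authors aligned to GRCm38 (mm10) using STAR and counted using featureCounts, per the submitters' processing notes. Their versions and strand setting are not given in the sources used. Per the labels, 2.0 ng of RNA entered each library, and the share of technical noise in the spread was not measured. The deposited CPM values equal the count over the library total to within 0.0005. The authors' log2 fold changes, p-values and adjusted p-values were copied from the deposited table.

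Counts were tested in R 4.3.3 by the two-sided quasi-likelihood test of edgeR 4.0.16, with robust estimation, TMM factors, filterByExpr and group as the only term, over all 17209 genes with Benjamini-Hochberg adjustment at 0.05. The SE is the log2 change over the square root of F. Log2 CPM used a prior count of 2. DESeq2 1.42.0 and limma 3.58.1 were alternatives, and offsets came from mgcv 1.9.3. The fit was also run on simulated counts with known changes. How many of those it recovered is not given here, so members that did not pass are not shown to be unchanged. Positions and lengths are those of GENCODE M21, which places 99.4% of the genes on the same chromosome, and promoter sequences are RefSeq's for GRCm38.p6.

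The members and lists were chosen with earlier results of these data known. Genes named from a list are the 3 non-members with the smallest p, unless said otherwise. The marker score is the mean log2 CPM of 15 fibroblast and blood endothelial markers. It was 3.08 to 4.48 in sham and 4.37 to 5.40 in pMCAO libraries. With 7 libraries, a fit with both terms can hardly tell the score from the group.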

Additional observations from a re-analysis of the deposited data

Results flagged for a closer look

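Within the sham group, Jund in Sham 4 (54.1 CPM) stood apart from the other libraries (37.4 to 38.2 CPM), with a gap of 0.96 of the whole range. Among 12 sets of sham values examined (10 members and the shares of Fosl2 and Junb) it was the only one marked, and chance marks about 1 of 20 such sets. Sham 4 is also the most deeply sequenced library, and the cause was not tested.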

How the results depend on the processing

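Over 21 alternatives, the number of members that passed was 0 except with sample quality weights (2) and under offsets for exon length and GC content (1). Members without overlap in either direction were 2 (12.6% of all genes), 1 without scaling factors (13.9%), 4 under those offsets (10.6%), and 3 with upper-quartile factors (12.5%), without Sham 1 (22.5%), without pMCAO 2 (27.9%) and without pMCAO 3 (19.9%). The members' median log2 change, 0.21, ranged from -0.05 (sample quality weights) to 0.50 (offsets), and from 0.01 (without pMCAO 2) to 0.32 (without pMCAO 1) leaving out a library. The count over all genes, 17, was 34 with upper-quartile factors, 29 without scaling factors (14 of them higher, against 12 of 17), 75 over genes of at least 5 CPM, 470 with DESeq2, 35 with limma-voom, 818 with sample quality weights, 30 after thinning, 9 with Y-linked counts and 0 with the marker score as a covariate (993 genes at an unadjusted p under 0.05 by edgeR). Leaving out a library, it ranged from 0 (without pMCAO 1, where 1987 had an unadjusted p under 0.05 by edgeR) to 100 (without pMCAO 2), with 47 without Sham 1, 47 without Sham 2, 9 without Sham 4 and 7 without pMCAO 3. Without scaling factors the median of all genes was -0.14 against -0.02.

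A direction counted as reversed where at least 1 of both fits had an unadjusted p under 0.05. This held for Fosb with sample quality weights (-0.44) and Hsph1 with the marker score (0.04), and the cause was not tested. The difference in Junb share was -0.258 percentage points, and from -0.883 to 0.245 leaving out a library, positive without Sham 2 or pMCAO 3. With the replicate number as a block, 21 genes and 0 members passed and the members' median was 0.27. Same-numbered libraries correlated at -0.11, 0.01 and 0.18, so the numbers were not taken as pairs. The counting error is small for all members, and the number of libraries limits precision.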

Other observations

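Among 11578 genes of at least 5 CPM that are not members, the patterns most like Fos over the 7 libraries, by Pearson r of log2 CPM, were those of Il2rg (0.979), the common gamma chain of cytokine receptors, Rbm22 (0.972), Sat1 (0.969), an enzyme of polyamine breakdown, and Myc (0.968), itself an immediate early gene. Myc was at 79.9, 74.4, 54.8 and 63.8 CPM in Sham 1 to 4 and at 69.4, 92.6 and 67.0 CPM in pMCAO 1 to 3, with its highest value in pMCAO 2 and its lowest in Sham 3, as for Fos. Most like Fosl2 were Gm26582 (0.984), Osbpl9 (0.982), an oxysterol binding protein, Sap18 (0.980) and Kdm3a (0.975), a histone demethylase. With 7 libraries and this many genes, such values are a description only.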
